A study of Homo sapiens with 2 samples.

Results

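Nuclear receptors are transcription factors that bind small lipophilic ligands such as steroids, thyroid hormone, retinoids, bile acids and oxysterols, or act as orphans without a known ligand. Most carry a zinc-finger DNA-binding domain and a ligand-binding domain, and many bind DNA as heterodimers with a retinoid X receptor. In liver cells they govern bile acid, lipid, sterol and drug metabolism, the response to glucocorticoids and the circadian clock. Interferon-alpha acts through another route, a cell surface receptor whose kinases activate STAT proteins and IRF9.

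The family was described here by 44 listed receptor genes, read through probe sets that the platform annotation assigns to that gene alone. HNF4A and HNF4G were left out of the list. Of the 44 genes, 38 had such a probe set, 125 probe sets in all, among 19775 genes with a probe set on the array. No level or ratio of their own is given for NR1H2, NR1H4, NR1I2, NR1D1, NR2F2 and NR0B1, whose expression was not analysed here.

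The RNA came from Huh-7, an established human hepatoma cell line. One flask was incubated for 24 hours and then kept for 6 hours in medium holding 100 U/mL of recombinant human interferon-alpha 2b, and the untreated flask had its medium exchanged. Each flask was measured on 1 Affymetrix expression array, so no difference below has a replicate check and no test or p-value is given. Values are the authors' intensities on a linear scale.

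All 6 hepatocyte or hepatoma markers were bright on both arrays. AFP, the fetal albumin-like protein of hepatoma cells, had 13478 in interferon-treated cells and 11588 in untreated cells. PTPRC and CD3E (leukocytes), CDH5 and KDR (endothelium), and DCN and LRAT (stellate cells and fibroblasts) were below the median of all values on both arrays, and the other 6 markers of those cells were above it, with log2 ratios of interferon-alpha over untreated from -0.42 (VWF, near the median) to 0.08 (COL1A1). The treatment label was checked with a list of 8 interferon-induced genes: 7 had a probe set and all 7 were at least 2-fold higher with interferon-alpha. Of the 13269 genes above the median on at least 1 array, 0.43% were. The list was chosen with earlier results of these data known, so it is not an independent check. IRF9, the DNA-binding subunit of the factor that type I interferon activates, had 2143 in treated cells and 106.7 in untreated cells, and ISG15, a ubiquitin-like protein, had 8332 and 351.2.

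Promoters of 3 genes are shown because they hold the core of the interferon-stimulated response element, the site that the IRF9-containing complex binds, searched here as GAAA, any 2 bases and GAAA on either strand. ISG15 is the induced gene set beside the receptor genes NR5A2 and RARG, the only receptors with a match in the windows searched. No window was found by symbol for NR0B2, VDR, NR2F6 and NR4A2, so their promoters were not searched. Each window is the 250 bases before an annotated start site in RefSeq (GRCh38.p14), written 5′ to 3′ on the gene's strand, with the match in capitals. They lie at chr1:1013247-1013496 (plus strand), chr1:200042341-200042590 (plus strand, 1 of 2 annotated starts of NR5A2) and chr12:53232210-53232459 (minus strand). In ISG15, 2 overlapping matches run together, and in NR5A2 the match is on the opposite strand.
ISG15: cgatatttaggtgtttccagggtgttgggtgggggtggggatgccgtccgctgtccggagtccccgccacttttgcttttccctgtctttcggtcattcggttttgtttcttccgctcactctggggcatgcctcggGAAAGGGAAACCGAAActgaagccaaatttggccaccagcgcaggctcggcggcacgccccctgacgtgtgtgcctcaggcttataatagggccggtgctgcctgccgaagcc
NR5A2: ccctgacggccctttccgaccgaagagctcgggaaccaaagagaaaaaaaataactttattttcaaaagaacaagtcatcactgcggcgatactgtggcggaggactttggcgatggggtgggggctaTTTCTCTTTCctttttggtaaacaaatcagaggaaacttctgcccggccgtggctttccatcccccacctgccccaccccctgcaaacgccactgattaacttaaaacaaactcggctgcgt
RARG: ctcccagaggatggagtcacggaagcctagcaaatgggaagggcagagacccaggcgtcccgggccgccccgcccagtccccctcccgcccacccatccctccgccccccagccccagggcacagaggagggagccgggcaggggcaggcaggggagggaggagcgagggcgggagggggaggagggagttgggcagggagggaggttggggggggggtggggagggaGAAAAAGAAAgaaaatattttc
The response element core was found in 2 of 94 windows of the 40 receptors matched by symbol (2.13%), against 3.02% of all 35116 promoter windows. Counted by gene, it was found in 2 of the 40 receptors, against 1014 of all 27305 genes. The 2 ways of counting differ in direction, so no scarcity in receptors is read from them. In the interferon list the core was found in 5 of 9 windows and 4 of 6 matched genes (ISG15, IFIT1, IFIT3 and MX1). The half-site of many nuclear receptors, AGGTCA on either strand, was found in 15 of the 94 receptor windows, against 12.1% of all windows. By gene it was found in 11 of the 40 receptors, against 3979 of all 27305 genes. The receptors had more windows per gene, 94 for 40 genes against 35116 for 27305, and some windows of a gene overlapped. A match by gene is likelier with more windows, so no excess of half-sites in receptors is read from these counts. A match describes the letters only.

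A receptor was called above the median when the intensity of its probe set exceeded 48.5, the median of all 54613 non-control probe sets of both arrays together. Where a gene had several probe sets, the brightest by mean log2 value of the arrays stood for it. On these terms 26 of 38 receptors (68.4%) were above the median on both arrays, near the 64.4% of all genes. A further 2 were above it on the untreated array alone and 10 were below it on both. The receptors were not matched to other genes on the number of probe sets to choose from. No excess of receptors above the median is therefore read from these shares. Intensities of different probe sets do not rank mRNA amounts, because probe sets hybridise with different strength. ESRRB lay just inside, at 51.1 with interferon-alpha and 56.6 untreated, NR5A1 straddled the median at 48.1 and 48.9, and ESR2 and NR2E3 were nearest outside it, at 40.6 on both arrays for ESR2 and at 38.7 and 39.8 for NR2E3.

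Ratios were taken after values below 48.5 were raised to it, so a ratio with one side below it is a bound. On this floored scale, and on the 1 probe set used for each gene, no receptor gene differed between the arrays by as much as 0.32 in log2, the smallest threshold used. Of the 28 receptors above the median on at least 1 array, 0 reached 0.32 in either direction with interferon-alpha. Over all 13269 genes counted in that way, 2.12% reached 0.32 upwards and 1.89% downwards, so with 28 genes a count of 0 lies near the background. On the same scale 0 receptors were 1.5-fold higher or lower, against 0.754% and 0.0829% of the counted genes, and 0 were 2-fold higher or lower, against 0.43% and 0%. Without the floor, RARB was at -0.61, from 34.6 with interferon-alpha and 53.0 untreated, and ESRRG, below 48.5 on both arrays, was at 0.39. The median log2 ratio of interferon-alpha over untreated was 0.02 in the 28 receptors and 0.03 in all counted genes. The ratio was above 0 in 17 receptors and below 0 in 11, and the median of all counted genes was likewise above 0. The share of all counted genes above 0 was not computed. The sign of the receptor ratios depended on the scaling. Quantile scaling left 11 receptors above 0 and 17 below. Centring on the hybridisation controls placed all 28 below 0 and 19 of them at -0.32 or less. The median of all counted genes was then -0.37.

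**Figure D1:**
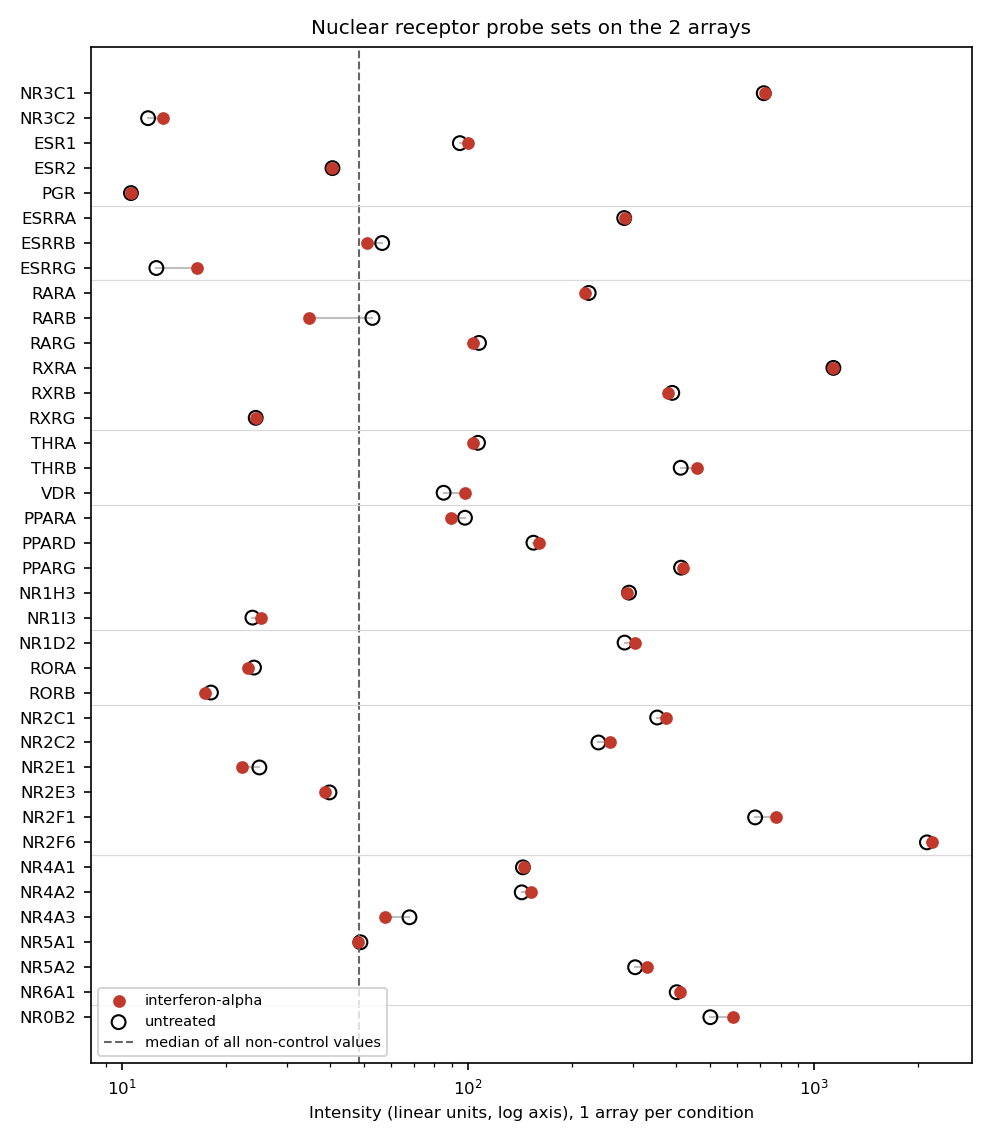
Intensity of each of the 38 receptors with a probe set of its own (horizontal log axis, linear intensity units) in interferon-alpha-treated (filled) and untreated (open) Huh-7 cells, 1 array each, grouped by class from the steroid receptors at the top. The dashed line is the median of all non-control values, 48.5; paired points nearly coincide for most receptors, and the widest gap, for RARB, spans the line.

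The highest log2 ratios above the median on both arrays belonged to NR0B2, VDR and NR2F1, and the lowest to NR4A3, ESRRB and PPARA, on the probe sets used. For VDR, ESRRB and PPARA other counted probe sets had the opposite sign. NR0B2, the small heterodimer partner SHP, which lacks a DNA-binding domain and represses other receptors in bile acid feedback, had 583.4 in treated cells and 501.7 in untreated cells, 1.16-fold higher (log2 0.22). NR4A3, an orphan receptor of the immediate early class, had 57.5 in treated cells and 67.8 in untreated cells, 1.18-fold lower (log2 -0.24). With the floor and the deposited scaling these 2 bracket the counted receptors on the probe sets used. Both lay inside the central 95% of log2 ratios of all genes above the median on both arrays, from -0.29 to 0.30. After quantile scaling VDR, at 0.20, was above NR0B2, at 0.15. For NR4A3 only 1 of 3 probe sets was counted.

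The spread of ratios differed with brightness. When genes above the median on both arrays were split by mean intensity into 10 groups of equal size, the dimmest group had a central 95% of -0.37 to 0.27, the brightest one of -0.02 to 0.29, and the group medians lay between -0.05 and 0.14. Against the genes in the same brightness group, 0 of 26 receptors fell outside the central 95%. Of the 26, 12 were above and 14 below the median of their group. The robust SD (scaled median absolute deviation) of the log2 ratio was 0.10 over these receptors and 0.13 over all 12742 genes above the median on both arrays. It describes spread between genes, not replicate error. The receptors were not matched to all genes on brightness for these values, so no narrower spread in receptors is read from them.

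**Figure D2:**
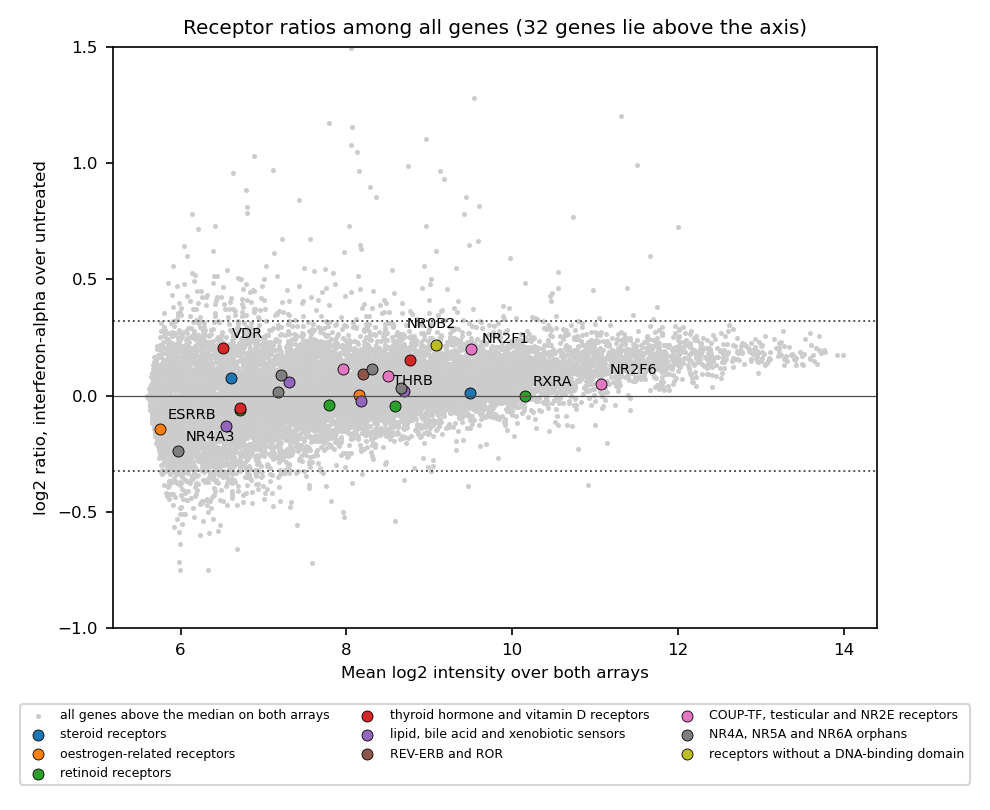
Log2 ratio of interferon-alpha over untreated (vertical) against mean log2 intensity over both arrays (horizontal) for all genes above the median on both arrays (grey) and the 26 receptors among them (coloured by class). Dotted lines mark -0.32 and 0.32; every receptor lies between them, and 32 genes lie above the upper axis limit of 1.5.

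Among the steroid receptors, NR3C1, the glucocorticoid receptor, had 721.1 in treated cells and 715.5 in untreated cells (log2 0.01). ESR1, oestrogen receptor alpha, had 99.8 and 94.8 (log2 0.07) on its chosen probe set. The 2 values of each pair lay close together on these probe sets, but the other counted probe sets of NR3C1 were at 0.13, 0.13 and -0.16. For ESR1 only 3 of 9 probe sets were above the median, and these all end in _x_at or _s_at, suffixes of probe sets that can match more than 1 transcript. All counted probe sets of NR3C1 carry these suffixes too, and its 1 probe set without them was below the median, at 31.7 in treated cells and 20.8 in untreated cells. NR3C2 (mineralocorticoid receptor), ESR2 (oestrogen receptor beta) and PGR (progesterone receptor) were below the median on both arrays. ESRRA, an oestrogen-related orphan receptor that works with PGC-1 coactivators on mitochondrial genes, had 283.9 in treated cells and 282.9 in untreated cells. The other counted probe set of ESRRA was at -0.18. Its relative ESRRB had 51.1 and 56.6 (log2 -0.15), and ESRRG was below the median.

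The retinoid receptors comprise the RAR genes, receptors for all-trans retinoic acid, and the RXR genes, the shared heterodimer partners of the family. RXRA had 1136 in treated cells and 1137 in untreated cells (log2 -0.002). RXRB had 377.5 and 389.4 (log2 -0.04), whereas RXRG was listed at 24.4 on both arrays, below the median. RARA had 217.4 in treated cells and 223.4 in untreated cells (log2 -0.04). RARG, with the response element core in its promoter window, had 103.2 in treated cells and 107.7 in untreated cells (log2 -0.06). The other counted probe set of RARG was at -0.21, and that of RXRB at -0.14. On the probe sets used and with the deposited scaling, all 5 counted retinoid receptors had ratios below 0, although RXRA was at 0.02 after median scaling. The other counted probe set of RXRA was at 0.08, and 2 of the 4 counted probe sets of RARA were above 0, at 0.01 and 0.06. RARB was above the median on the untreated array alone, with 34.6 in treated cells and 53.0 in untreated cells. With values below the median raised to it, RARB was at least 1.09-fold lower, and with the floor at the 40th percentile it was 1.53-fold lower. The other 4 probe sets of RARB were below the median on both arrays.

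For the thyroid hormone receptors, THRB, the main form in liver, had 458.8 in treated cells and 411.9 in untreated cells (log2 0.16), and THRA had 103.1 and 107.0 (log2 -0.05). All 4 probe sets of THRA lay between -0.19 and -0.03, whereas the 3 of THRB ran from -0.15 to 0.16. A further 3 probe sets are annotated to both THRA and NR1D1, whose transcripts overlap on opposite strands. They had log2 ratios of -0.07, 0.01 and -0.06 and cannot be assigned to either gene. VDR, the vitamin D receptor, had 98.1 in treated cells and 85.1 in untreated cells (log2 0.21), while its other counted probe set had 73.4 and 97.4 (log2 -0.41).

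Among the lipid and xenobiotic sensors, PPARA, PPARG, PPARD, NR1H3 and NR1I3 were read through a probe set of their own. PPARG, the adipogenic fatty acid sensor, had 419.2 in treated cells and 413.0 in untreated cells (log2 0.02). PPARD, its broadly expressed relative, had 161.0 and 154.7 (log2 0.06). NR1H3, the oxysterol receptor LXR alpha that drives sterol efflux and lipogenic genes, had 287.7 in treated cells and 292.1 in untreated cells (log2 -0.02). On these probe sets the 3 receptors differed by 1.02-, 1.04- and 1.02-fold between the arrays, and the other counted probe set of PPARD was at -0.17. PPARA, which drives fatty acid oxidation in liver, had 89.7 in treated cells and 98.1 in untreated cells (log2 -0.13). A second probe set of PPARA with nearly the same mean brightness had 107.6 and 81.7 (log2 0.40). The other 3 counted probe sets of PPARA were at 0.09, 0.17 and 0.19, so that 4 of 5 were above 0, with a median of 0.17 over all 5, and the sign for this gene rests on the choice of probe set. NR1I3, the xenobiotic receptor CAR, was below the median at 25.3 in treated cells and 23.9 in untreated cells.

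Of the clock receptors, NR1D2, the haem-binding repressor REV-ERB beta, had 302.9 in treated cells and 283.6 in untreated cells (log2 0.10), and its other probe set had a log2 ratio of 0.13. RORA and RORB, activators that compete with REV-ERB for the same sites, were below the median on both arrays in all of their 8 and 3 probe sets. The 4 counted members of the NR2 class had ratios above 0 with the deposited scaling, although NR2F6 was at -0.10 after quantile and -0.08 after lowess scaling and none of the 4 remained above 0 when the arrays were centred on the hybridisation controls. As the median over counted probe sets, NR2C2 was at -0.07 and NR2F6 at -0.01. NR2F6, a COUP-TF-related repressor, had 2190 in treated cells and 2118 in untreated cells (log2 0.05). NR2F1, the orphan COUP-TF1, had 776.9 and 675.7 (log2 0.20). Neither reached 0.32. The testicular receptors NR2C1 and NR2C2, which bind direct repeats as orphans, had 373.9 in treated cells against 352.2 in untreated cells (log2 0.09) and 257.9 against 238.3 (log2 0.11). NR2E1 and NR2E3, receptors of neural and retinal development, were below the median.

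Orphans of the NR4A, NR5A and NR6A classes were above the median in 5 of 6 cases on both arrays. NR4A1 and NR4A2, immediate early factors that many stimuli induce quickly, had 145.6 in treated cells against 144.2 in untreated cells (log2 0.01) and 152.2 against 143.1 (log2 0.09). The 3 probe sets of NR4A2 lay together at 0.09 to 0.12, and those of NR4A1 ran from -0.21 to 0.01. NR5A2, the liver receptor homologue LRH-1 that activates bile acid and cholesterol genes, had 329.0 in treated cells and 304.2 in untreated cells (log2 0.11). Its 3 counted probe sets lay between 0.07 and 0.11, and its promoter window holds the response element core shown above. NR6A1, the germ cell nuclear factor, had 410.0 in treated cells and 401.0 in untreated cells (log2 0.03), with 7 probe sets that ran from -0.22 to 0.34. The steroidogenic factor NR5A1 was at the median, as given above.

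Probe sets of the same receptor often disagreed in sign. In the 21 receptors with several counted probe sets, the median range of the log2 ratio within a receptor was 0.17, against 0.14 in 6209 genes of the array. In 14 of the 21 (66.7%) the probe sets lay on both sides of 0, against 45.0% of those genes. Both measures rise with the number of counted probe sets. The receptors were not matched to other genes on that number or on brightness, so no greater disagreement in receptors is read from them. Of 65 receptor probe sets above the median on both arrays, 2 reached 0.32 upwards (PPARA and NR6A1) and 1 reached -0.32 (VDR), against 2.57% and 1.61% of 22682 such probe sets. None of the 3 was the probe set used for its gene. They read parts of the same labelled RNA and are not replicates. In 6 of the 125 receptor probe sets (4.80%) the value was the same on both arrays, as in 4.32% of all non-control probe sets; how such ties arose was not tested.

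**Figure D3:**
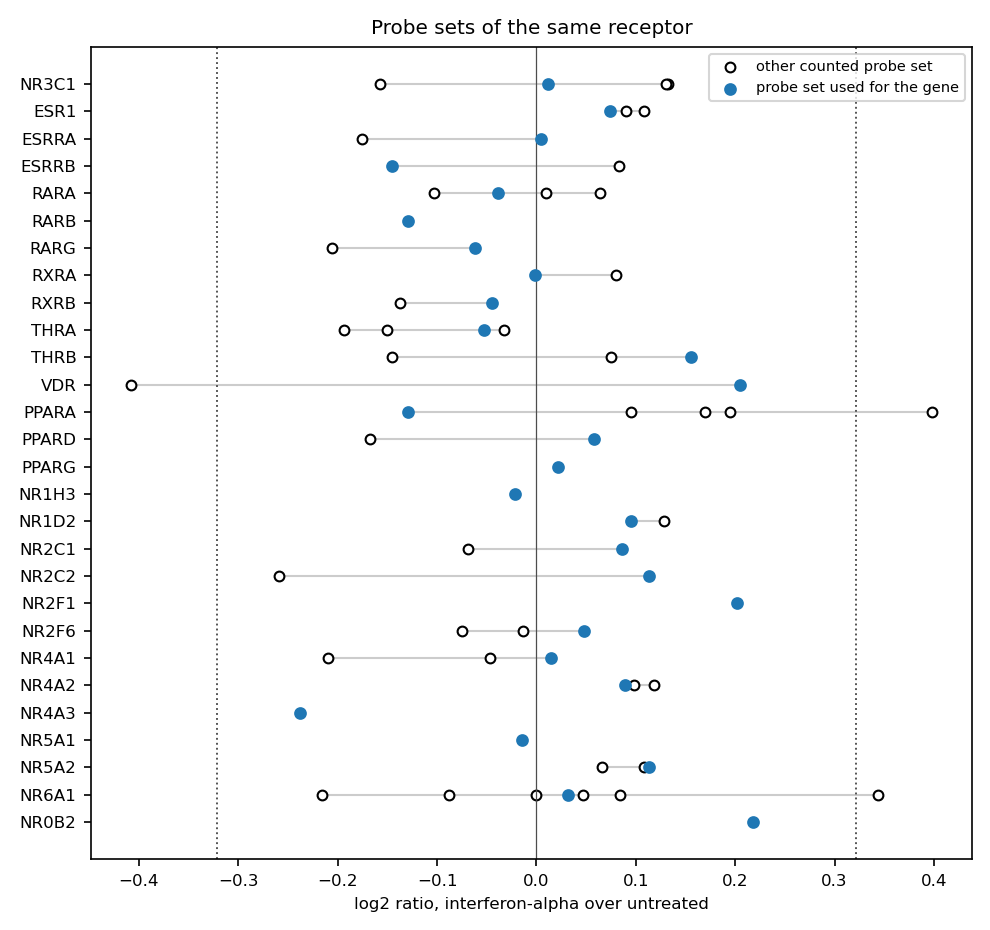
Log2 ratio of interferon-alpha over untreated (horizontal) for every counted probe set of the 28 counted receptors, with the probe set used for the gene filled and a line joining probe sets of one gene. Dotted lines mark -0.32 and 0.32; probe sets of VDR, PPARA and NR6A1 lie beyond them while the filled points of all 28 genes lie within.

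Genes that act with the receptors or respond to them were examined through 9 lists. Of their 77 genes 68 had a probe set and 57 were counted, of which 1 reached 0.32 upwards and 1 downwards, near the background of 2.12% and 1.89%. The higher one was NCOA7, a coactivator that binds oestrogen receptor and has a short interferon-inducible form in human cells, with 1031 in treated cells and 584.8 in untreated cells, 1.76-fold higher (log2 0.82; 0.43 as the median of its counted probe sets). The lower one was KLF9, a zinc-finger factor that thyroid and glucocorticoid hormones induce, with 71.0 and 91.6, 1.29-fold lower (log2 -0.37). Taken as the median of its counted probe sets, KLF9 was at -0.10.

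The coregulators, proteins that receptors recruit to activate or silence genes, had a median log2 ratio of 0.10 over 17 counted members. That median was 0.005 after quantile scaling, 0.02 after lowess scaling and -0.33 after centring on the hybridisation controls. PRMT1, an arginine methyltransferase coactivator, had 5699 in treated cells and 5074 in untreated cells, and NCOA4 had 3556 and 3061. All 5 counted receptor chaperones, which hold steroid receptors ready for ligand, lay between 0.11 and 0.23, and their median of 0.18 was 0.03 after quantile or lowess scaling and -0.25 after centring on the hybridisation controls. HSP90AA1, for example, had 7544 in treated cells and 6448 in untreated cells, and PTGES3 had 7667 and 6571. The brightest group of genes had a median of 0.14, and the 6 hepatocyte or hepatoma markers lay between 0.10 and 0.29.

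Target gene lists gave no member past 0.32 in size apart from KLF9. Medians were -0.06 for targets of the bile acid receptor FXR, -0.08 for LXR targets, -0.05 for PPAR alpha targets, 0.05 for PXR and CAR targets, -0.02 for glucocorticoid receptor targets, 0.07 for clock genes and 0.02 for retinoic acid and thyroid hormone targets. The positive medians for PXR and CAR targets and for retinoic acid and thyroid hormone targets turned below 0 after quantile scaling (-0.05 and -0.03) and after lowess scaling (-0.03 and -0.02). The first was also below 0 once the _x_at and _s_at probe sets were dropped (-0.03), and the second with a pseudocount in place of the floor (-0.06). With the 60th percentile as floor those of the PPAR alpha and glucocorticoid receptor targets were above 0, at 0.03 and 0.02, and that of the glucocorticoid receptor targets was 0.002 after median scaling. FGF19, the bile acid-induced hormone, had 827.6 in treated cells and 785.6 in untreated cells, and SLC51B, a bile acid exporter subunit, had 518.7 and 572.9. SREBF1, the lipogenic factor under LXR control, had 645.6 in treated cells and 698.6 in untreated cells, and the sterol exporter ABCA1 had 347.8 and 360.0. Neither list moved past the threshold in any counted member. Among PPAR alpha targets, the lipid droplet protein PLIN2 had 3030 in treated cells and 2877 in untreated cells, and the fatty acid-binding protein FABP1 had 2302 and 2225. Among PXR and CAR targets, ALAS1, the first enzyme of haem synthesis, had 1044 in treated cells and 1006 in untreated cells, and the drug exporter ABCB1 had 152.9 and 140.7. All 4, the brightest of their lists, were slightly brighter on the interferon-alpha array. Of the dimmer PPAR alpha targets, ACADM was at 0.03 and CYP4A11 at -0.12, and the remaining counted PXR and CAR target, CYP3A4, was at -0.03. Glucocorticoid targets gave 1683 in treated cells and 1536 in untreated cells for the phosphatase DUSP1, and 574.6 and 547.1 for the leucine zipper protein TSC22D3 (GILZ), while the other 3 counted targets were below 0, with FKBP5 at -0.16, TAT at -0.10 and ZBTB16 at -0.02. Clock genes gave 1368 in treated cells and 1288 in untreated cells for the repressor NFIL3, and 601.3 and 537.7 for the cryptochrome CRY1. DBP, at -0.25, was the only counted clock gene below 0. Retinoid and thyroid targets gave 366.8 in treated cells and 342.3 in untreated cells for the retinaldehyde reductase DHRS3, and 294.8 and 291.0 for the transglutaminase TGM2. None of these pairs differed by 0.32 or more on the log2 scale. CPT1A, the gatekeeper of mitochondrial fatty acid oxidation, and ANGPTL4, an inhibitor of lipoprotein lipase, were the lowest PPAR alpha targets, at -0.24 and -0.23. CYP7A1, the rate-limiting enzyme of bile acid synthesis, and CYP2B6, a drug-metabolising enzyme, were below the median on both arrays.

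**Figure D4:**
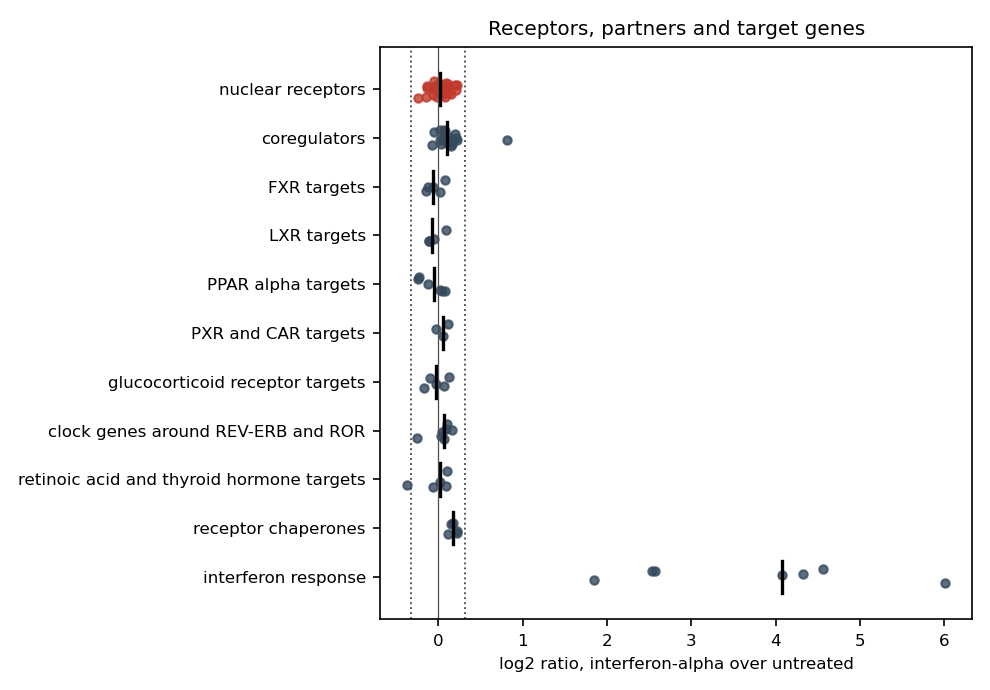
Log2 ratio of interferon-alpha over untreated (horizontal) for the counted nuclear receptors (red) and the counted members of each gene list (dark), with vertical bars at the medians and dotted lines at -0.32 and 0.32. The 7 interferon response genes lie between 1.85 and 6.01, of which IFIT1, MX1 and OAS1 are lower bounds, while the receptors lie between -0.24 and 0.22.

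Promoter composition was compared between receptors above and below the median. The upstream windows of the 22 matched receptors above the median on both arrays had a median GC content of 62.6% and 17 CpG dinucleotides, and those of the 10 receptors below it on both arrays had 57.0% and 10. Over all matched genes these were 64.4% and 20 above the median, and 54.8% and 7 below it. The receptors thus differed in the same direction as the array at large, with ranges that overlapped: 4 to 43 CpG dinucleotides above the median and 1 to 30.8 below it, as means over the windows of a gene.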

How the data were processed

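The deposited table gives 1 intensity, on a linear scale, for each probe set and array. Per the submitters' processing notes the authors used GCOS; version, background correction, probe summary and scaling: not given in the sources used here. Gene names came from the platform annotation, with symbols updated through the gene ID in RefSeq tables; 41091 of 54613 non-control probe sets had 1 gene, 1801 had several and 11721 had none named. Values below the median of both arrays (48.5) were raised to it before log2. Genes above it on at least 1 array were counted. Samples were grouped by their source names, 1 array per group; the number of arrays limits the precision, and no test was possible. The thresholds (0.32 on the log2 scale, 1.5-fold and 2-fold) are descriptions. All members are named; described first are the 3 highest and 3 lowest ratios, and from each gene list the members past 0.32 and the brightest, with further examples chosen after their values were seen. Members and lists were chosen with earlier results of these data known. Alternatives were another floor, scaling or probe set choice. The procedure was tested on simulated data with known folds, of 1.5 or more in size, put into genes well above the floor. The simulated noise was equal for all genes, with no brightness trend or offset between arrays. It therefore does not cover changes near 0.32 or genes near the floor. Python 3.11.15, pandas 2.3.3 and statsmodels 0.14.6 were used.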

Additional observations from a re-analysis of the deposited data

How the results depend on the processing

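No paired analysis was possible because each condition had 1 array, and no array could be left out. A value was taken to have moved when it shifted by more than 0.13, the robust SD between genes. Median, quantile and lowess scaling and the 60th percentile as floor left 0 receptors past 0.32 in size on the log2 scale; the scalings also changed none of the pathway counts. Centring on the 18 hybridisation control probe sets, which were brighter on the interferon-alpha array by a median log2 of 0.43, moved the median of the receptors to -0.37 and that of the pathway genes to -0.36, beside -0.37 for all counted genes. It gave 19 receptors and 37 pathway genes at -0.32 or less, 5 pathway genes at least 1.5-fold lower and 0 at least 1.5-fold higher. Under every other alternative the receptors' median lay between -0.04 and 0.04. A floor at the 40th percentile made RARB the 1 receptor at -0.32 or less and the 1 receptor at least 1.5-fold lower. With no floor and a pseudocount of 1, ESRRG was the 1 receptor at 0.32 or more, RARB the 1 receptor at -0.32 or less and 1.5-fold lower, and 2 pathway genes were at -0.32 or less. Choosing the probe set with the highest untreated value made VDR the 1 receptor at -0.32 or less. When the _x_at and _s_at probe sets were left out, 31 receptors kept a probe set, 17 were above the median on both arrays, and 1, PPARA, was at 0.32 or more. The count of pathway genes at -0.32 or less was 0 in that setting, under the 60th percentile floor and with the median over counted probe sets, where 0 were at least 1.5-fold higher. Values near the floor limit what a ratio can show.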
